A study of Mus musculus with 8 samples.

Results

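A set of 10 genes of the endothelium that lines brain blood vessels was followed across 8 RNA libraries of cells sorted from mouse cortex. They were chosen by symbol, and all 10 were found among the 55573 genes of the deposited count tables through their Ensembl identifiers. Each of the 10 passed the filter on low counts that left 18205 genes for testing. They are the vascular endothelial growth factor (VEGF) receptors Flt1 and Kdr, the angiopoietin receptor Tek, the adhesion and junction genes Pecam1, Cdh5 and Cldn5, the transporters Slc2a1, Slco1a4 and Abcb1a, and the transcription factor Sox17.

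The study compared PV-Cre/tdTomato/Dnmt1 wild-type mice (WT) with PV-Cre/tdTomato/Dnmt1 loxP2 mice (KO) at 6 and at 18 months of age, with 2 libraries in each of the 4 groups. All mice were on the C57BL/6 background and carried PV-Cre, which drives Cre recombinase in parvalbumin-expressing cells, and the tdTomato reporter. The KO mice also carried Dnmt1 alleles with loxP sites around exons 4 and 5, from a B6;129Sv stock, in the gene for the maintenance DNA methyltransferase. Cells of 1 cortical hemisphere per mouse were dissociated with trypsin and collagenase, sorted by fluorescence and pooled over 6 mice of a genotype (the 6-month groups are also called young and the 18-month groups old), and the labels call the 2 libraries of a group technical replicates, so that p-values below measure the spread between libraries and not between animals.

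Dnmt1 was read at 97.9 and 103.6 counts per 1000000 reads (CPM) in the younger WT libraries and at 77.2 and 75.2 CPM in the younger KO libraries. The older libraries gave 80.8 and 81.1 CPM in WT, and 74.3 and 76.6 CPM in KO. A count over the whole gene also takes in reads outside the deleted exons and therefore does not check the deletion. Total counts ran from 6008175 to 13551218 per library. The labels give the cells as parvalbumin-positive cortical interneurons, but Pvalb itself had 6 reads over all 8 libraries and markers of oligodendrocytes, astrocytes and pericytes were read in every library. In such bulk RNA, fewer endothelial cells and less RNA per endothelial cell cannot be told apart.

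Endothelial cells of the brain are sealed to each other by tight junctions and restrict the passage of solutes between blood and nervous tissue, the property called the blood-brain barrier. Nutrients cross through carriers such as the glucose transporter encoded by Slc2a1, and efflux pumps such as the P-glycoprotein encoded by Abcb1a return foreign compounds to the blood. VEGF and angiopoietin receptors govern the growth and stability of the vessels, and transcription factors of the ETS and SOX families drive endothelial genes.

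The promoters of Flt1, Kdr and Slco1a4 are shown because the VEGF receptor genes moved in opposite directions with age in WT, whereas Slco1a4 passed the test in no comparison. Each is the stretch of 250 bases before the RefSeq start site on build GRCm38.p6, written in the gene's own direction, with the letters AGGAAG (or CTTCCT, its reverse complement), an ETS core, in capitals. Flt1 is chr5:147726012-147726261, Kdr is chr5:75978456-75978705 and Slco1a4 is chr6:141856221-141856470, all on the minus strand.
Flt1: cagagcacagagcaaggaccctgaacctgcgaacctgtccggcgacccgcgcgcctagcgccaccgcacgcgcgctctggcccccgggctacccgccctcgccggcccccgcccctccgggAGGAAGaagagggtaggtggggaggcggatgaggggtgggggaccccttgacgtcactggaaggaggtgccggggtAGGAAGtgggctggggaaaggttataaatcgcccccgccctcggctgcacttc
Kdr: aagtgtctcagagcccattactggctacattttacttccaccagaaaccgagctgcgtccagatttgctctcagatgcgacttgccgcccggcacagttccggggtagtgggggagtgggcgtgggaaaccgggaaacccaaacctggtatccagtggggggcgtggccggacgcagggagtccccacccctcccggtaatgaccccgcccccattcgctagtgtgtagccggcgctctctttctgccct
Slco1a4: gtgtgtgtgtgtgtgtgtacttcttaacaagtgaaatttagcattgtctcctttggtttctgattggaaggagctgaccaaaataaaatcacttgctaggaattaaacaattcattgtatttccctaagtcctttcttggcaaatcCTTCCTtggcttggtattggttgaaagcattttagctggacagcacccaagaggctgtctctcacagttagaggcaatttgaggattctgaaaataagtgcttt

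The Flt1 window held 2 matches to AGGAAG and the Slco1a4 window 1, while the Kdr window held 0, and 29.5% of the 32841 mouse promoters of the same length held at least 1 on either strand. The windows of Cldn5, Tek and Slc2a1, which fell with age in WT as Flt1 did, also held 0. The shorter core GGAA, which AGGAAG contains, was present 4 times in each of the windows of Flt1, Kdr and Slco1a4 and in 93.5% of all promoters. The SOX core ATTGT was found 3 times in the Slco1a4 window, in no copy in those of Flt1 and Kdr, and in 27.7% of promoters. TATAAA occurred 1 time in the Flt1 window and in 12.4% of promoters. The windows also differed in CpG content: Flt1 had 23 CpG dinucleotides and 70.4% GC, Kdr 16 and 61.6%, and Slco1a4 0 and 39.2%, beside a median over all promoters of 6 CpG and 52.4% GC. These matches are descriptions of letters in a window. Windows were found for 7 members, not for Pecam1, Cdh5 and Sox17, and that of Abcb1a was not used because its RefSeq start lay 92986 bases from the start of the gene in the annotation used for gene lengths.

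Per kilobase of exon, the members differed widely in level. Slc2a1 averaged 43.1 RPKM (CPM per kilobase of exon) over the 8 libraries, above 96.6% of the tested genes. Cldn5, a tight-junction claudin, followed at 5.69 RPKM, and Flt1, Slco1a4, Kdr, Abcb1a, Tek, Pecam1 and Cdh5 lay between 2.57 and 1.06 RPKM. Sox17 was lowest at 0.422 RPKM, above 6.33% of tested genes, and rested on 10 to 26 reads per library. Slc2a1 took most of the members' reads, and changes are therefore given gene by gene.

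**Figure D1:**
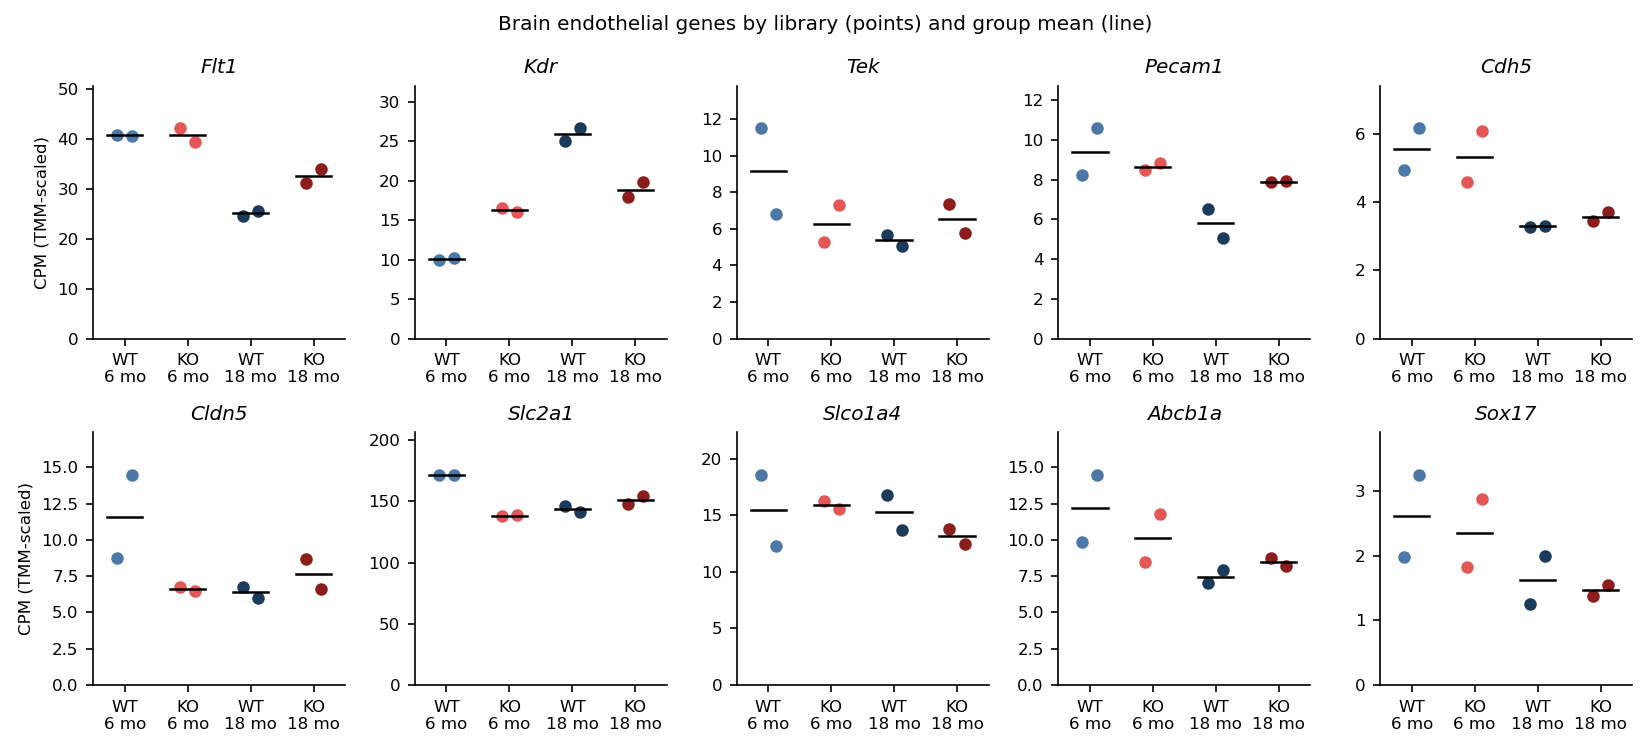
Level of each of the 10 endothelial genes in CPM (vertical axis, starting at 0, with its own scale in each panel) in the 4 groups. Points are the 2 libraries of a group and the line their mean; Kdr is lowest in WT at 6 months (10.1 CPM) and highest in WT at 18 months (25.9 CPM), while Flt1 is lowest in WT at 18 months (25 CPM).

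Flt1, a VEGF receptor whose soluble form can trap VEGF (5:147561604-147726011, minus strand, mm10), was read at 40.7 and 40.6 CPM in young WT, 42.1 and 39.4 in young KO, 24.6 and 25.5 in old WT, and 31.1 and 34 in old KO. The groups at 6 months overlapped, and both 18-month groups lay below both 6-month groups, with WT lowest. Flt1 fell 1.62-fold with age in WT (log2 change -0.70, standard error 0.107, edgeR adjusted p = 5.72e-06) and 1.26-fold in KO (-0.33, standard error 0.0973, edgeR adjusted p = 0.012). It was higher in KO than in WT at 18 months by 1.29-fold (0.37, standard error 0.101, edgeR adjusted p = 0.00607), whereas at 6 months the log2 difference was 0.01 with a 95% interval from -0.21 to 0.22. Without replicate 2 of KO at 18 months the difference at that age was no longer called (edgeR adjusted p = 0.074), and the fall in KO was lost without replicate 1 of KO at 6 months (adjusted p = 0.126) or at 18 months (0.159), and also with library totals as the only scaling (0.072) and in DESeq2 (0.0822).

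Kdr, the main signalling receptor for VEGF in endothelium (5:75932827-75978458, minus strand, mm10), showed another order. Its level was 10 and 10.2 CPM in young WT, 16.6 and 16 in young KO, 25.1 and 26.7 in old WT, and 18 and 19.8 in old KO, from 61 to 347 reads per library. No 2 of the 4 groups overlapped, and WT held both the lowest and the highest values. Kdr rose 2.56-fold with age in WT (log2 change 1.36, standard error 0.147, edgeR adjusted p = 2.31e-08). The KO level was 1.61-fold higher than WT at 6 months (0.68, standard error 0.16, edgeR adjusted p = 0.00132) and 1.37-fold lower at 18 months (-0.46, standard error 0.117, edgeR adjusted p = 0.00366). The genotype difference at 18 months minus that at 6 months was -1.14 (standard error 0.198, edgeR adjusted p = 4.81e-05). The age change in KO was 0.21 with a 95% interval from -0.05 to 0.48 and was not called. The difference at 18 months was lost without replicate 2 of WT at 18 months (edgeR adjusted p = 0.0904) or replicate 1 of KO at 18 months (0.0648).

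The ratio of the 2 VEGF receptors, Kdr over Flt1 in RPKM within a library, was 0.369 and 0.377 in WT and 0.589 and 0.607 in KO at 6 months. At 18 months it was 1.53 and 1.57 in WT and 0.867 and 0.873 in KO. Kdr exceeded Flt1 per length in the WT libraries at 18 months only. Markers of oligodendrocytes had the same lowest and highest groups as Kdr: their sum over 10 genes was 13734 to 13762 CPM in young WT, 29889 to 30703 in young KO, 40116 to 40139.9 in old WT and 27148 to 27545 in old KO, with none of the 10 genes at 0. Their part in the Kdr values was not tested.

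**Figure D2:**
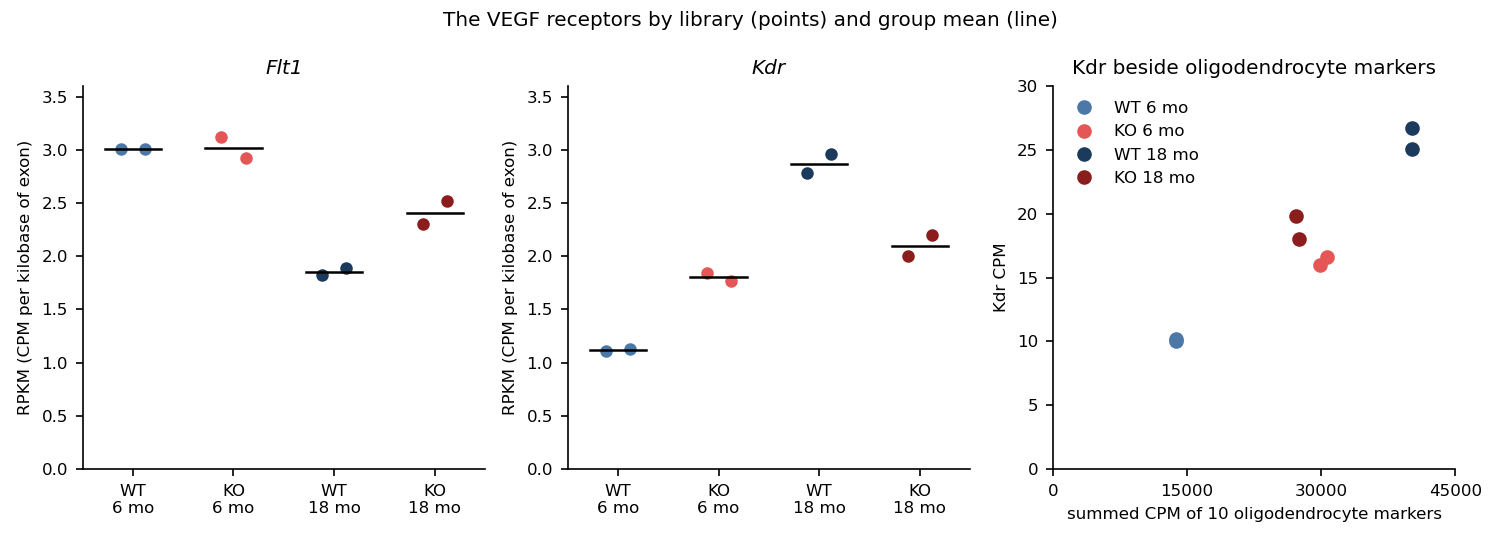
Levels of Flt1 and Kdr in RPKM (left and middle panels, vertical axes from 0) by group, and Kdr in CPM against the summed CPM of 10 oligodendrocyte markers (right panel), with points for the 8 libraries and lines for group means. Kdr lies under Flt1 in all groups but WT at 18 months, where the ratio is 1.53 and 1.57, and where the oligodendrocyte sum is also highest.

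Tek, the receptor for the angiopoietins (4:94739289-94874976, plus strand, mm10), was read at 11.5 and 6.82 CPM in young WT, 5.27 and 7.28 in young KO, 5.64 and 5.08 in old WT, and 7.33 and 5.78 in old KO. The groups at 6 months overlapped and the first WT library there stood above every other library. Tek fell 1.72-fold with age in WT (log2 change -0.78, standard error 0.251, edgeR adjusted p = 0.00996), a call lost without that library (replicate 1 of WT at 6 months, adjusted p = 0.331) and without replicate 2 of WT at 18 months (0.0716). In KO the age change was 0.07 with a 95% interval from -0.42 to 0.56. Neither genotype difference was called, at -0.55 at 6 months (95% interval -1.07 to -0.03, edgeR adjusted p = 0.0898) and 0.31 at 18 months (-0.18 to 0.80, adjusted p = 0.344). The value at 6 months rested on single libraries: it was -0.12 without replicate 1 of WT at that age (edgeR adjusted p = 0.793), -0.87 and called without replicate 2 (0.0127), and -0.33 without replicate 1 of KO (0.463).

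Pecam1 encodes the platelet and endothelial adhesion molecule CD31 (11:106654217-106750628, minus strand, mm10). It was read at 8.23 and 10.6 CPM in young WT, 8.47 and 8.83 in young KO, 6.52 and 5.08 in old WT, and 7.86 and 7.94 in old KO. WT at 18 months lay below the other 3 groups. Pecam1 fell 1.65-fold with age in WT (log2 change -0.73, standard error 0.213, edgeR adjusted p = 0.00542), and the call was lost without replicate 2 of WT at 6 months (adjusted p = 0.0894) or at 18 months (0.104). At 18 months the KO excess of 0.48 had a 95% interval from 0.07 to 0.88 and missed the threshold (edgeR adjusted p = 0.0663). It was called with library totals as the only scaling (0.62, adjusted p = 0.0165) and without replicate 1 of WT at 18 months (0.64, adjusted p = 0.0453), replicate 1 of WT at 6 months (adjusted p = 0.046) or replicate 2 of that group (adjusted p = 0.0465), and it was 0.30 without replicate 2 of WT at 18 months (adjusted p = 0.473), while at 6 months the difference was -0.12 (-0.54 to 0.30). The age change in KO was -0.13 (-0.52 to 0.26). Pecam1 is also a platelet and leukocyte gene. The 5 platelet markers summed to 1.79 to 3.08 CPM per library, with 1 to 4 of them at 0 reads in each group, and 8 leukocyte markers summed to 3.89 to 56.7 CPM, highest in KO at 6 months. Their part in the Pecam1 values was not tested.

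Cdh5, the VE-cadherin of endothelial adherens junctions (8:104101625-104144511, plus strand, mm10), was read at 4.94 and 6.17 CPM in young WT, 4.58 and 6.09 in young KO, 3.26 and 3.31 in old WT, and 3.44 and 3.71 in old KO, so that the 4 older libraries lay below the 4 younger ones. The fall with age was 1.69-fold in WT (log2 change -0.75, standard error 0.275, edgeR adjusted p = 0.0217). In KO the value was -0.58 with a 95% interval from -1.09 to -0.06 and was not called (edgeR adjusted p = 0.0815). The WT call was lost without replicate 2 of WT at 6 months (edgeR adjusted p = 0.156), without replicate 1 (0.0633) or replicate 2 (0.0818) of WT at 18 months, and in DESeq2 (0.107). The genotype differences were -0.06 at 6 months (95% interval -0.60 to 0.48) and 0.12 at 18 months (-0.43 to 0.66).

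Cldn5, the claudin of brain endothelial tight junctions (16:18776847-18778262, plus strand, mm10), was read at 8.72 and 14.5 CPM in young WT, 6.76 and 6.45 in young KO, 6.77 and 6 in old WT, and 8.7 and 6.64 in old KO. The 2 WT libraries at 6 months were far apart, and only the second stood clear of the rest. Cldn5 was 1.76-fold lower in KO than in WT at 6 months (log2 difference -0.81, standard error 0.233, edgeR adjusted p = 0.00736) and fell 1.83-fold with age in WT (-0.87, standard error 0.228, edgeR adjusted p = 0.00205). Without replicate 2 of WT at 6 months neither was called, at -0.40 (edgeR adjusted p = 0.269) and -0.45 (adjusted p = 0.148), and the first was also lost without replicate 2 of KO at 6 months (adjusted p = 0.0509). At 18 months the genotype difference was 0.29 (95% interval -0.16 to 0.73), and the age change in KO was 0.22 (-0.24 to 0.68).

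Slc2a1, the glucose carrier GLUT1 of brain endothelium, which astrocytes also express (4:119108711-119137983, plus strand, mm10), was read at 171.2 and 171.9 CPM in young WT, 138.1 and 138.6 in young KO, 146.1 and 141.7 in old WT, and 148.1 and 154.2 in old KO. No groups overlapped, with WT at 6 months highest and KO at 6 months lowest. Slc2a1 was 1.24-fold lower in KO at 6 months (log2 difference -0.31, standard error 0.0619, edgeR adjusted p = 0.000281) and fell 1.19-fold with age in WT (-0.25, standard error 0.0611, edgeR adjusted p = 0.000983). The difference at 18 months was 0.07 (95% interval -0.05 to 0.19) and the age change in KO 0.13 (0.00 to 0.25). Neither was called, but with library totals as the only scaling both were (0.21, edgeR adjusted p = 0.008, and 0.22, adjusted p = 0.00644). With 1040 to 1940 reads per library, it was the most deeply counted member, and the calls it had were kept under every alternative run. The 10 astrocyte markers summed to 11188 to 11223 CPM in young WT, 6815 to 6846 in young KO, 3875 to 3909.5 in old WT and 8406 to 8458 in old KO, with none at 0. Their part in the Slc2a1 values was not tested.

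Slco1a4, an organic anion transporter of the barrier (6:141805440-141856199, minus strand, mm10), was read at 18.6 and 12.3 CPM in young WT, 16.3 and 15.6 in young KO, 16.8 and 13.7 in old WT, and 13.8 and 12.5 in old KO. The 2 WT libraries at 6 months held the lowest and the highest values of the gene, and no comparison was called. The age change in WT was -0.04 with a 95% interval from -0.40 to 0.32, and in KO -0.27 (-0.61 to 0.06). The genotype differences were 0.05 at 6 months (-0.32 to 0.41) and -0.19 at 18 months (-0.52 to 0.14).

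Abcb1a, a P-glycoprotein gene (5:8660077-8748575, plus strand, mm10), was read at 9.88 and 14.5 CPM in young WT, 8.47 and 11.8 in young KO, 7.02 and 7.93 in old WT, and 8.78 and 8.2 in old KO. WT at 18 months was lowest in both libraries. The gene fell 1.61-fold with age in WT (log2 change -0.69, standard error 0.21, edgeR adjusted p = 0.0071), which was lost without replicate 2 of WT at 6 months (-0.38, adjusted p = 0.214). The close paralogue Abcb1b could share reads with it, since the handling of reads that map to several places was not given in the sources used here. The age change in KO was -0.25 (95% interval -0.66 to 0.15), and the genotype differences were -0.27 in young mice (-0.69 to 0.16) and 0.17 in old mice (-0.24 to 0.58).

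Sox17, an endothelial transcription factor of arteries (1:4490931-4497354, minus strand, mm10), was read at 1.98 and 3.25 CPM in young WT, 1.83 and 2.87 in young KO, 1.25 and 2 in old WT, and 1.37 and 1.55 in old KO. The groups overlapped in every comparison except that of age in KO. The age change was -0.62 in WT (95% interval -1.47 to 0.23) and -0.68 in KO (-1.49 to 0.13), and neither passed the test. The genotype differences were -0.16 in young mice (-0.99 to 0.67) and -0.21 in old mice (-1.04 to 0.61). Intervals of this width follow from at most 26 reads in a library.

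**Figure D3:**
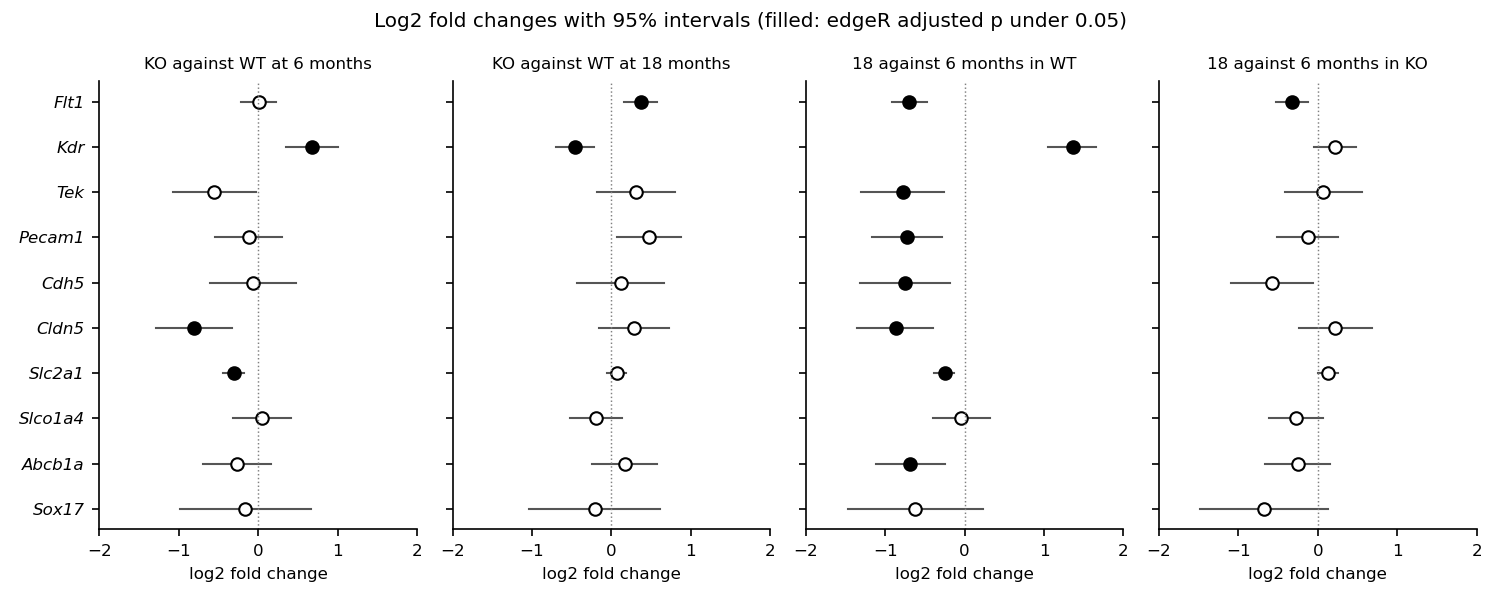
log2 fold change of each of the 10 genes in the comparisons of genotype at each age and of age within each genotype (horizontal axis, log2 scale), with 95% intervals as lines. Filled symbols are genes past the edgeR threshold; in WT with age 7 genes lie below 0 and are called, while Kdr lies at 1.36.

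Counted over the 10 members, age in WT gave 7 called lower (Flt1, Slc2a1, Cldn5, Pecam1, Abcb1a, Tek and Cdh5) and 1 higher (Kdr). Across all tested genes 59% were called in that comparison, 30.8% lower and 28.2% higher. The median log2 change was -0.69 over the members and -0.04 over all tested genes. The share of counts on Gm26917, a gene of the tables with many reads, was 9.63% in WT at 6 months and 2.88% at 18 months (4.58% and 1.74% in KO). Mitochondrial ribosomal RNA took 0.857% and 3.49% in WT (5.24% and 1.99% in KO), and the part of both in the age values was not tested. The count of lower genes was 3 without replicate 2 of WT at 6 months and 4 without replicate 2 of WT at 18 months. In KO, age gave 1 lower (Flt1) and 0 higher, beside 31.7% of tested genes called, 17.9% lower and 13.8% higher, and the median was -0.19 against 0.00. For genotype, 1 member was higher and 2 were lower in KO at 6 months, where 38.8% of tested genes were called, 19.2% higher and 19.6% lower. At 18 months, 1 was higher and 1 lower, where the share was 32.1%, with 14.7% higher and 17.4% lower. Both shares of members were below those of all genes. Groups did not overlap between genotypes for 3 members at 6 months and 7 at 18 months, beside 66.8% and 66.6% of tested genes, and between ages for 8 members in WT and 7 in KO, beside 77.4% and 67.3%.

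The change of the genotype difference between ages was called for 4 members, beside 39.1% of tested genes (18.4% positive and 20.7% negative). It was positive for Cldn5 (1.10, edgeR adjusted p = 0.00787), Slc2a1 (0.38, adjusted p = 0.000873) and Flt1 (0.37, adjusted p = 0.0474), and negative for Kdr (-1.14). Since this quantity is also the age change in KO minus that in WT, it compares the same libraries as the age changes above. The Flt1 value was kept in 3 of 14 alternatives, and that of Cldn5 was lost without replicate 2 of WT at 6 months (adjusted p = 0.107) or replicate 1 of KO at 18 months (0.0548). Tek (0.86, adjusted p = 0.0526) and Pecam1 (0.60, adjusted p = 0.103) missed the threshold. Tek was called with library totals as the only scaling (adjusted p = 0.0149), with no filter (0.039), with a replicate block (0.0483) and without replicate 2 of WT (0.00735) or KO (0.0351) at 6 months or of KO at 18 months (0.0351), and it was 0.42 without replicate 1 of WT at 6 months (0.381). Pecam1 was called with library totals (0.0288) and without replicate 1 of WT at 6 months (0.0485).

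Other genes of the brain endothelium were taken from a list of 26, of which 23 were tested. With age in WT 12 were called lower and 1 higher, with a median of -0.72, and in KO 4 were lower and 0 higher, with a median of -0.19. Of all tested genes 59% were called in the first (30.8% lower, 28.2% higher) and 31.7% in the second (17.9% lower). Counting both directions, neither share of the list called was above that of all genes. The 12 of 23 called lower in WT were a larger share than 30.8%, and the 1 higher a smaller share than 28.2%. In KO the share of 4 of 23 called lower was not above 17.9%. The medians over all tested genes were -0.04 in WT and 0.00 in KO. Mfsd2a, a lipid transporter of the barrier, averaged 160 ± 8.91 CPM in young WT, 73.9 ± 6.64 in young KO, 53.5 ± 5.58 in old WT and 78.8 ± 6.11 in old KO (CPM, SD, n = 2). It fell 2.97-fold with age in WT (edgeR adjusted p = 9.22e-14) and was 2.17-fold lower in KO at 6 months (edgeR adjusted p = 1.29e-10). Mfsd2a held 160 of the 358.9 CPM summed over the 26 genes in young WT. The summed astrocyte markers had the same order of group means, and their part in the Mfsd2a values was not tested. Ets1, an ETS factor also found in lymphocytes, fell 2.26-fold with age in WT (edgeR adjusted p = 1.51e-07) and was 1.97-fold higher in KO at 18 months (edgeR adjusted p = 3.01e-06). The adhesion gene Esam fell 1.84-fold in WT and 1.53-fold in KO with age, and the nitric oxide synthase gene Nos3 fell 3.03-fold in WT. Cd34 was the gene of this list that rose with age in WT (1.73-fold, edgeR adjusted p = 0.00195), and it was also higher in KO at 6 months (1.58-fold). Its 2 young WT libraries were apart, at 10.4 and 5.85 CPM. Young KO gave 11.8 and 13.8 CPM, and old WT 12.8 and 15 CPM. At 18 months 5 of the 23 were higher in KO and 0 lower, and at 6 months 3 were higher (Eng, Esam and Cd34) and 4 lower, beside 32.1% and 38.8% of tested genes called.

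**Figure D4:**
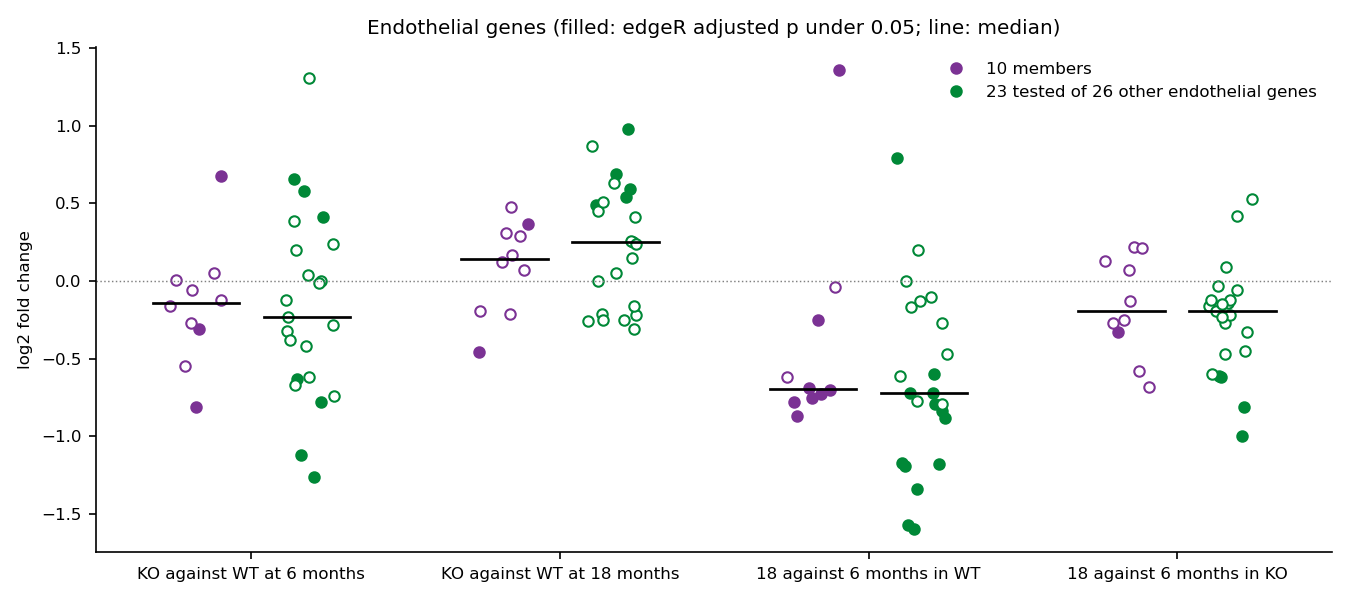
log2 fold change (vertical axis) of the 10 members and of the 23 other tested brain endothelial genes in the comparisons of genotype and of age, with each gene as a point, filled where called, and the list median as a line. With age in WT the medians are -0.69 and -0.72, and Kdr at 1.36 and Cd34 at 0.79 are the called genes above 0.

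Ligands, receptors and other genes of the VEGF and angiopoietin pathways, many of them made by cells other than endothelium, formed a further list. It shared Tie1 and Ptprb with the list of other brain endothelial genes. Of 12 tested, 8 were lower and 0 higher with age in WT, and 4 were lower and 0 higher in KO at 6 months. The shares of all tested genes called were 59% and 38.8%, of which 30.8% and 19.6% were lower. Vegfa, the ligand of Flt1 and Kdr, averaged 934.6 CPM in young WT, 506.2 in young KO, 372.4 in old WT and 448.9 in old KO (n = 2 each). It fell by 1.33 on the log2 scale with age in WT (edgeR adjusted p = 5.54e-16). The VEGF co-receptor Nrp1 fell by 1.66 and the Tek ligand Angpt1 by 2.30 with age in WT. At 18 months Nrp1 (0.80), Angpt1 (1.15) and Vegfa (0.27) were higher in KO and no gene of the list was lower. Of all tested genes 32.1% were called at that age, 14.7% higher and 17.4% lower.

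Wnt and Norrin signals, which induce and keep barrier properties in brain endothelium, were represented by 17 tested genes. With age in WT 9 were lower and 3 higher, and in KO at 18 months 8 were higher and 2 lower, where 59% and 32.1% of all tested genes were called. By direction these shares were 30.8% lower and 28.2% higher with age in WT, and 14.7% higher and 17.4% lower at 18 months. Wnt7a, a ligand of this pathway, averaged 63.8 CPM in young WT, 23.4 in young KO, 14.5 in old WT and 26.9 in old KO. It fell by 2.12 on the log2 scale with age in WT, and Wnt7b by 1.75, while the co-receptor Lrp5 fell by 1.52. Among 17 tested carriers and receptors of barrier transport, 12 were lower and 2 higher with age in WT, and 9 were lower and 2 higher in KO at 6 months, where 59% and 38.8% of all tested genes were called. At 6 months 19.6% of all tested genes were lower in KO and 19.2% higher. The thyroid hormone carrier Slco1c1, which is also made by astrocytes, averaged 454.2 CPM in young WT, 210 in young KO, 114.6 in old WT and 256.4 in old KO. It fell by 1.98 with age in WT (log2), and Lrp8 fell by 2.05.

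Arterial and venous endothelial genes were counted against the 30.8% of all tested genes that were called lower with age in WT. Of 7 tested arterial genes 5 fell with age in WT and 0 rose, among them Mgp (-2.32), the Notch target Hey1 (-1.15), the connexin gene Gja4 (-1.21) and the endothelial Notch receptor gene Notch4 (-0.95). In KO 4 of the 7 fell, where 17.9% of all tested genes were called lower. Of 7 tested venous genes 4 fell with age in WT and 0 rose, among them Vcam1 (-2.01) and Ephb4 (-1.51), and 2 fell in KO. Vcam1 held 114.8 of the 159.7 CPM summed over the venous list in young WT. It averaged 50.6 CPM in young KO, 28.4 in old WT and 56.8 in old KO. The summed astrocyte markers had the same order of groups, and their part in the Vcam1 values was not tested. Between genotypes at 6 months 2 of the venous genes were lower in KO, Vcam1 (-1.18) and Ephb4 (-0.58). The 2 higher ones were Nr2f2 (0.80) and Lcn2 (3.22), the last also a leukocyte gene. Of all tested genes 19.6% were called lower and 19.2% higher in KO at that age. At 18 months Vcam1 (1.00) and Ephb4 (0.73) were higher and none was lower, beside 14.7% and 17.4% of all tested genes.

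Summed markers of pericytes and smooth muscle, cells that wrap the vessels, were lowest in WT at 18 months. Of these markers, Cspg4 (181.4 CPM) and Tagln (3.38 CPM) were lowest in KO at 18 months instead. The 12 pericyte and smooth muscle markers summed to 2759.8 to 2803 CPM in young WT, 2873 to 2970.4 in young KO, 1216 to 1253 in old WT and 2036 to 2064 in old KO. All 12 fell with age in WT, with a median of -1.10 (30.8% of tested genes were called lower), and 8 of them fell in KO and 0 rose (17.9%). In KO at 18 months 8 of the 12 were higher and 1 was lower, beside 14.7% and 17.4% of tested genes. The pericyte genes Rgs5 (1.10), Abcc9 (1.28), Vtn (0.96) and Pdgfrb (0.96) were among the higher ones, Cspg4, also a gene of oligodendrocyte precursors, was the lower one (-0.46), and Tagln was at -0.55 and not called. Astrocyte markers were called lower with age in WT in 10 of 10 cases and higher in KO at 18 months in 10 of 10. Oligodendrocyte markers showed the reverse in both, with 10 of 10 called. The part of these cell types in the endothelial values was not tested.

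**Figure D5:**
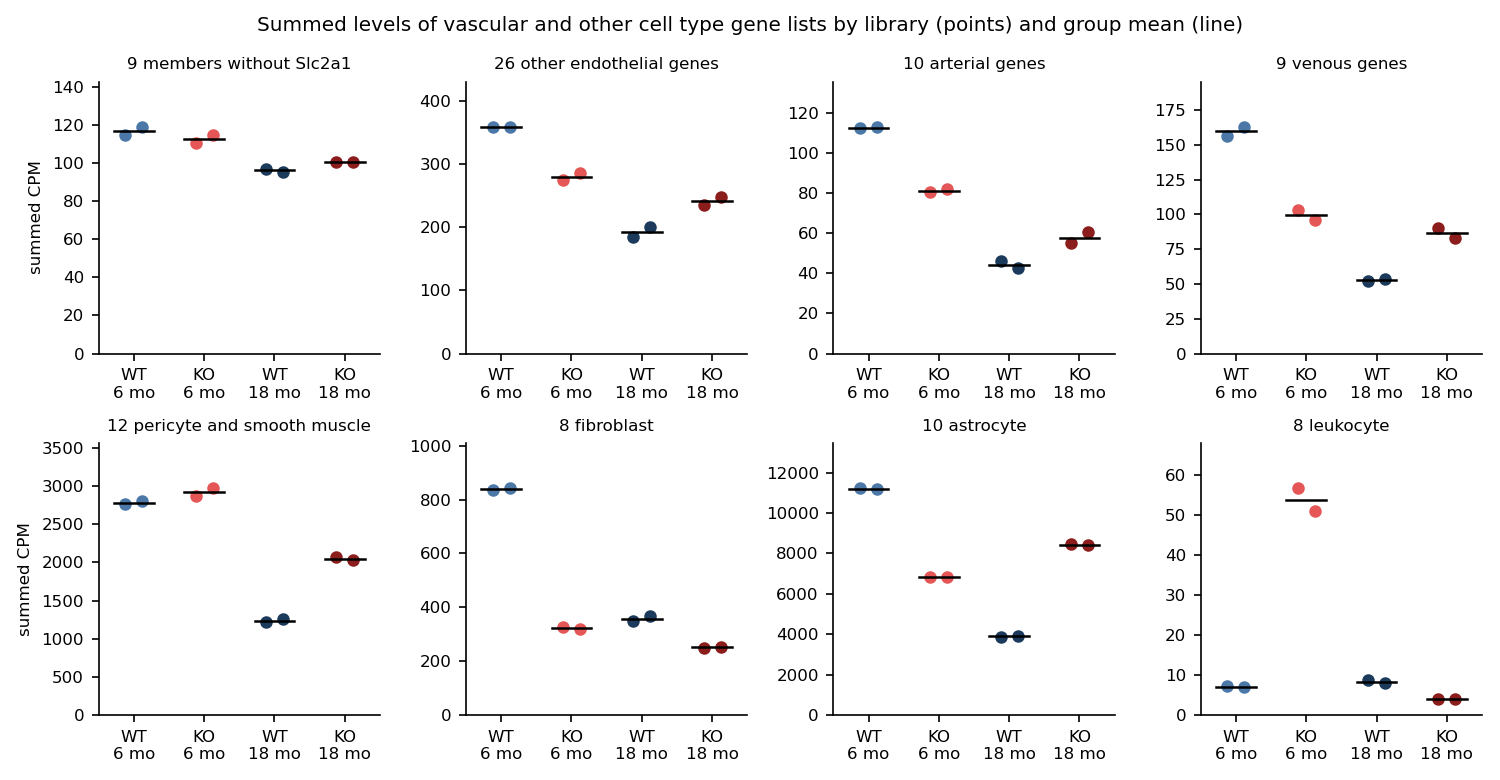
Summed level in CPM (vertical axis from 0, with its own scale in each panel) of endothelial lists and of marker lists of other cells, by group. Points are the 2 libraries and lines their mean. The panels of other endothelial, arterial, venous, pericyte and astrocyte genes are all lowest in WT at 18 months (pericyte 1234.5 and astrocyte 3892.4 CPM on average). The fibroblast panel is lowest in KO at 18 months (251.5 CPM), and leukocyte markers are highest in KO at 6 months (53.9 CPM).

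The profile over the 8 libraries that most resembled the mean of the members, among 10217 genes, was that of Slc7a5, the large amino acid carrier of the barrier, with a Pearson r of 0.984 across log2 CPM. Lasp1 (0.981), Mpped1 (0.98), Chpf2 (0.98) and Efemp2 (0.978) came next. The genes nearest to Kdr were Epb41l3 (0.998), Neo1 (0.997) and Kif13a (0.996), and Flt1 lay near Chgb (0.994) and Mef2c (0.99). Slc2a1 was nearest to Cyp2u1 (0.995), Brinp3 (0.99) and Ptprm (0.982), and Cldn5 to Apeh (0.971). These correlations describe 8 libraries in 4 groups of shared pools, and none of the genes named here was a member.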

How the data were processed

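Total RNA was measured in 8 libraries of sorted cortical cells. The authors deposited whole-number read counts per Ensembl gene, made, per the submitters' processing notes, with CASAVA 1.8.2, STAR 2.5.2a, featureCounts 1.5.0-p1 and mm10; strand and multi-mapping settings were not given in the sources used here. Symbols came from GENCODE vM21 for 99.8% of the identifiers. Counts were scaled by the trimmed mean of M values, filtered with a minimum count of 10 and tested in edgeR 4.0.16 (R 4.3.3) by a quasi-likelihood test over all 4 groups, with Benjamini-Hochberg adjustment over 18205 genes and a threshold of 0.05 ("called", "rose", "fell"). CPM are counts over scaled totals, and RPKM divide these by the exon union. Intervals are 95%, from 4 residual and 19.1 prior degrees of freedom. The test was checked on simulated data.

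The members and lists were chosen with earlier results of these data known. All 10 members are named, with up to 4 genes of smallest p per other list and comparison, and the nearest profiles by Pearson r, of which 1 is not reported here. Antisense genes overlapping Sox17, Abcb1a and Slc2a1 had at most 9 reads in a library. Alternatives were other scalings, no filter, only the libraries compared, a replicate block, each library left out, and DESeq2 1.42.0.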

Additional observations from a re-analysis of the deposited data

Results flagged for a closer look

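For 4 members the difference between genotypes itself differed between ages by the test of that change (the log2 difference between KO and WT in old mice, less the one in young mice). Across all tested genes 39.1% were called in the same test, about the share of the members. The value was -1.14 for Kdr, which was higher in KO in young mice and lower in old mice. It was 1.10 for Cldn5 and 0.38 for Slc2a1, both lower in KO in young mice and not called in old mice. It was 0.37 for Flt1, which was called in old mice alone, and this value was kept in 3 of 14 alternatives. The summed markers of astrocytes and oligodendrocytes also changed order between ages. Their part in these values was not tested.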

How the results depend on the processing

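Calls were recomputed under 15 alternatives (14 for the change of the genotype difference with age), and 668 of the 740 recomputed values kept direction and side of the threshold. Kept in all were Kdr and Slc2a1 at 6 months, Flt1, Kdr and Slc2a1 with age in WT, and Kdr and Slc2a1 for the change of the genotype difference. With library totals as the only scaling, the median of all genes moved to 0.14 at 18 months and -0.14 with age in WT, and to 0.10 with age in KO and 0.21 for the change of the genotype difference. The share of calls that were higher then went from 45.8% to 69.8% at 18 months and from 43.5% to 60.2% with age in KO, and from 47.1% to 64.3% for that change. The members called higher were then 3 at 18 months instead of 1, and with age in KO 1 was higher and 0 lower, where the edgeR fit on scaled totals gave 0 and 1. For the change of the genotype difference 5 were higher instead of 3. DESeq2 called 0 lower with age in KO.

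Leaving out 1 library at a time gave, at 6 months, 1 higher and 1 to 2 lower, at 18 months 0 to 2 higher and 0 to 1 lower, with age in WT 1 higher and 3 to 7 lower, with age in KO 0 higher and 0 to 1 lower, and for the change of the genotype difference 2 to 3 higher and 1 lower. Signs turned only for members that were not called. With library totals these were Flt1 (-0.05) and Slco1a4 (-0.01) at 6 months and Sox17 (0.13) for the change of the genotype difference, and with no filter Slco1a4 (0.01) with age in WT. With a library left out at 6 months they were Pecam1 (-0.28 to 0.08), Flt1 (-0.04 to 0.08), Cdh5 (-0.25 to 0.14), Slco1a4 (-0.22 to 0.38), Abcb1a (-0.50 to 0.04) and Sox17 (-0.49 to 0.25), and at 18 months Sox17 (-0.44 to 0.24). With age they were Slco1a4 (-0.30 to 0.30) in WT, and Tek (-0.14 to 0.33) and Abcb1a (-0.47 to 0.01) in KO. For the change of the genotype difference they were Cdh5 (-0.02 to 0.38), Slco1a4 (-0.57 to 0.03) and Sox17 (-0.47 to 0.37).

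Replicate numbers are not known to pair libraries. Correlations of same-numbered deviations ran from -0.0102 to 0.265 over 10123 genes. With a replicate block 4 members instead of 3 were higher for the change of the genotype difference, Tek being added (0.82, edgeR adjusted p = 0.0483), and Sox17 was at 0.01. The causes were not tested. Depth limits Sox17, Cdh5 and Tek most.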

Other observations

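Junction genes outside the members did not share one direction. Of 13 tested, 5 rose and 4 fell with age in WT, beside 28.2% and 30.8% of all tested genes. The cadherin gene Cdh2, which is also made by neurons and glia, fell by 1.02 on the log2 scale, and Cldn12 by 1.27, while the adhesion gene Jam3 rose by 0.93 and the catenin gene Ctnna1 by 0.62. In KO 1 rose (Cdh2, 0.26) and 1 fell (Esam, -0.61), beside 13.8% and 17.9% of all tested genes.

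Of 5 genes of fenestrated or peripheral endothelium 3 were tested, and their levels differed widely. Plpp3 averaged 1031.9 CPM in young WT, 605.8 in young KO, 341.5 in old WT and 656.1 in old KO. The summed astrocyte markers had the same order of groups, and their part in the Plpp3 values was not tested. Plvap, the diaphragm protein gene of fenestrated vessels, had between 3 and 22 reads per library. Perivascular and meningeal fibroblast markers fell with age in WT in 8 of 8 cases, with a median of -1.80. Among them were the collagen genes Col1a1 (-1.88), Col1a2 (-1.72) and Col3a1 (-2.78). In KO 4 of the 8 fell. Of all tested genes 30.8% were called lower with age in WT and 17.9% in KO. Pdgfra, which is also on the list of oligodendrocyte precursor markers, held 732.8 of the 839.3 CPM summed over the 8 genes in young WT.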
